A study of Mus musculus with 55 samples.

Results

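Olig1, Olig2, Sox10, Sox8, Nkx2-2, Myrf, Nkx6-2, Zfp488, Tcf7l2 and Chd7 are transcription and chromatin factors of the oligodendrocyte lineage. These 10 genes were chosen by name from the 55487 Ensembl genes counted in the mouse dorsal hippocampus, and all 10 were among the 16168 genes that passed the filter on low counts (over 1 CPM, the count scaled to library size, in at least 10 libraries). Their RNA was measured in 55 mice, with 1 library per mouse, to ask how hippocampal expression differs across the estrous cycle, between females and males, and between wild-type (WT) mice and knock-outs (KO) of Cnih3. Cnih3 encodes an auxiliary protein of AMPA receptors, and the KO line lacks its exon 4. All mice were on a C57/BL6j background. The WT mice were 4 in metestrus (Met), 6 in diestrus (Di), 5 in proestrus (Pro), 7 in estrus (Est) and 5 males. The KO mice were 5 in Met, 6 in Di, 4 in Pro, 6 in Est and 7 males. Stages were read from vaginal cytology, no mouse received a treatment, and ages ran from 10.86 to 23.71 weeks.

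Oligodendrocytes wrap axons in myelin and arise from dividing precursors that persist in the adult hippocampus. Olig2, Olig1, Sox10, Sox8 and Nkx2-2 are DNA-binding factors of the lineage that act in precursors and later cells. Myrf, Nkx6-2, Zfp488, Tcf7l2 and the chromatin remodeler Chd7 act mainly as precursors stop dividing and turn on myelin genes. In bulk tissue, fewer oligodendrocytes and less RNA per oligodendrocyte cannot be told apart. RNA of these genes from other cell types cannot be separated either.

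The genes lie on 8 chromosomes of the GRCm38 assembly. Olig2 (chr16:91225457-91228677) and Olig1 (chr16:91269772-91271933) are neighbours on the plus strand of chromosome 16. Myrf (chr19:10208272-10240748, minus strand) and Tcf7l2 (chr19:55741820-55933654, plus strand) share chromosome 19. Sox10 is at chr15:79154908-79165240, Sox8 at chr17:25565892-25570686, Nkx2-2 at chr2:147177546-147194243, Nkx6-2 at chr7:139579376-139582797 and Zfp488 at chr14:33967070-33978764, all on the minus strand, and Chd7 is at chr4:8690406-8867659 on the plus strand. Exons of 4 of them overlap a gene on the opposite strand. The overlaps are 278 bases of Nkx2-2 with Nkx2-2os, 246 bases of Nkx6-2 with Inpp5a, 157 bases of Olig1 with Gm15966 and 329 bases of Sox8 with 2810468N07Rik. The study counted only unambiguous reads, and whether strand was used is not given in the sources used here. Without strand, a read that fits both genes would be ambiguous and not counted.

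Nkx2-2 and Nkx6-2, both homeodomain factors, had the largest log2 fold changes when all Di mice were compared with Pro, and the 250 bases upstream of their RefSeq start sites (GRCm38.p6, chr2:147186403-147186652 and chr7:139582798-139583047, both minus strand) are printed for that reason. Capitals mark the E-box CANNTG, the kind of element that basic helix-loop-helix factors such as Olig1 and Olig2 bind.
Nkx2-2: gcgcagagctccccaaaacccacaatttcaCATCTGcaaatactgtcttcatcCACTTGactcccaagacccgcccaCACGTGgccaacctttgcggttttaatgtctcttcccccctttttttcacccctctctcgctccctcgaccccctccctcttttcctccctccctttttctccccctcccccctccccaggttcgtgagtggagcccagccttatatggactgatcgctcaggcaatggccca
Nkx6-2: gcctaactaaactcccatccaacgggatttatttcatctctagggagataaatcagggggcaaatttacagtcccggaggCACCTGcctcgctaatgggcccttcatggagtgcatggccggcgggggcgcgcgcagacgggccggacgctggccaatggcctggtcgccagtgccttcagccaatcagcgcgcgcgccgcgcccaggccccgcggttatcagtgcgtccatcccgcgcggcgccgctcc
The Nkx2-2 window held 3 E-boxes and the Nkx6-2 window held 1. The motif reads the same on both strands and occurs in 66.2% of the 32851 RefSeq promoter windows of this length. The Sox-type core ACAAT, searched on both strands, was found 1 time in the Nkx2-2 window and not in the Nkx6-2 window, and 27.7% of all windows hold it. Of the 7 windows listed for the 10 genes, 3 held an E-box and 3 held ACAAT. These are matches of letters and not measured binding sites.

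Library totals ran from 25881295 to 63547098 counts, with a median of 53384170. Median counts per library were 1492 for Sox8, 1424 for Sox10, 1390 for Olig1, 1190 for Myrf, 730 for Tcf7l2, 718 for Chd7 and 326 for Olig2. Nkx2-2, Nkx6-2 and Zfp488 rested on far fewer counts, with medians of 136, 119 and 88. Scaled per kilobase of exon, the median level over all mice was highest for Olig1, at 13.3 CPM per kb, followed by Sox10 at 9.88 and Sox8 at 9.78. Olig2 and Myrf were both at 2.82, Tcf7l2 at 1.64, Nkx6-2 at 1.37, Chd7 at 1.11, Nkx2-2 at 1.02 and Zfp488 at 0.424 CPM per kb. Olig1 exceeded Sox10 and Sox8 exceeded Olig2 in 55 of 55 mice. Sox10 exceeded Sox8 in 25 mice and Olig2 exceeded Myrf in 29, so the order within these pairs was not fixed from mouse to mouse.

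The diestrus groups were not uniform. Of the 12 diestrus mice, 7 were younger than 14 weeks (WT replicates 3, 4 and 5 and KO replicates 2, 3, 4 and 5, aged 10.86 to 13.86 weeks) and 5 were aged 16.29 to 23.43 weeks. These 7 mice, and none of the other 48, were labelled by a 3-digit number alone. The parents of all 7 were listed as CNIH3 x B6, as were those of every KO mouse. In the paper, KO mice came from heterozygotes mated with each other or, at times, with homozygotes. The listing is therefore not read as the exact cross. Among WT mice the parents were so listed for 4 of 6 in Di, 1 of 4 in Met, 1 of 5 in Pro, 1 of 7 in Est and 4 of 5 males. Outside diestrus 10 mice were under 14 weeks, from 12 to 13.57 weeks old, and none of them had such a number. The younger diestrus age, the stage and the numbering of these 7 mice therefore cannot be told apart, and the diestrus comparisons are also given for the younger and the older Di mice alone. Whole-gene counts of Cnih3 ran from 21.6 to 62.5 CPM in WT and from 21.6 to 47.8 CPM in KO mice. The counts span the whole gene and not the deleted exon, so they do not check the genotype labels.

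**Figure D1:**
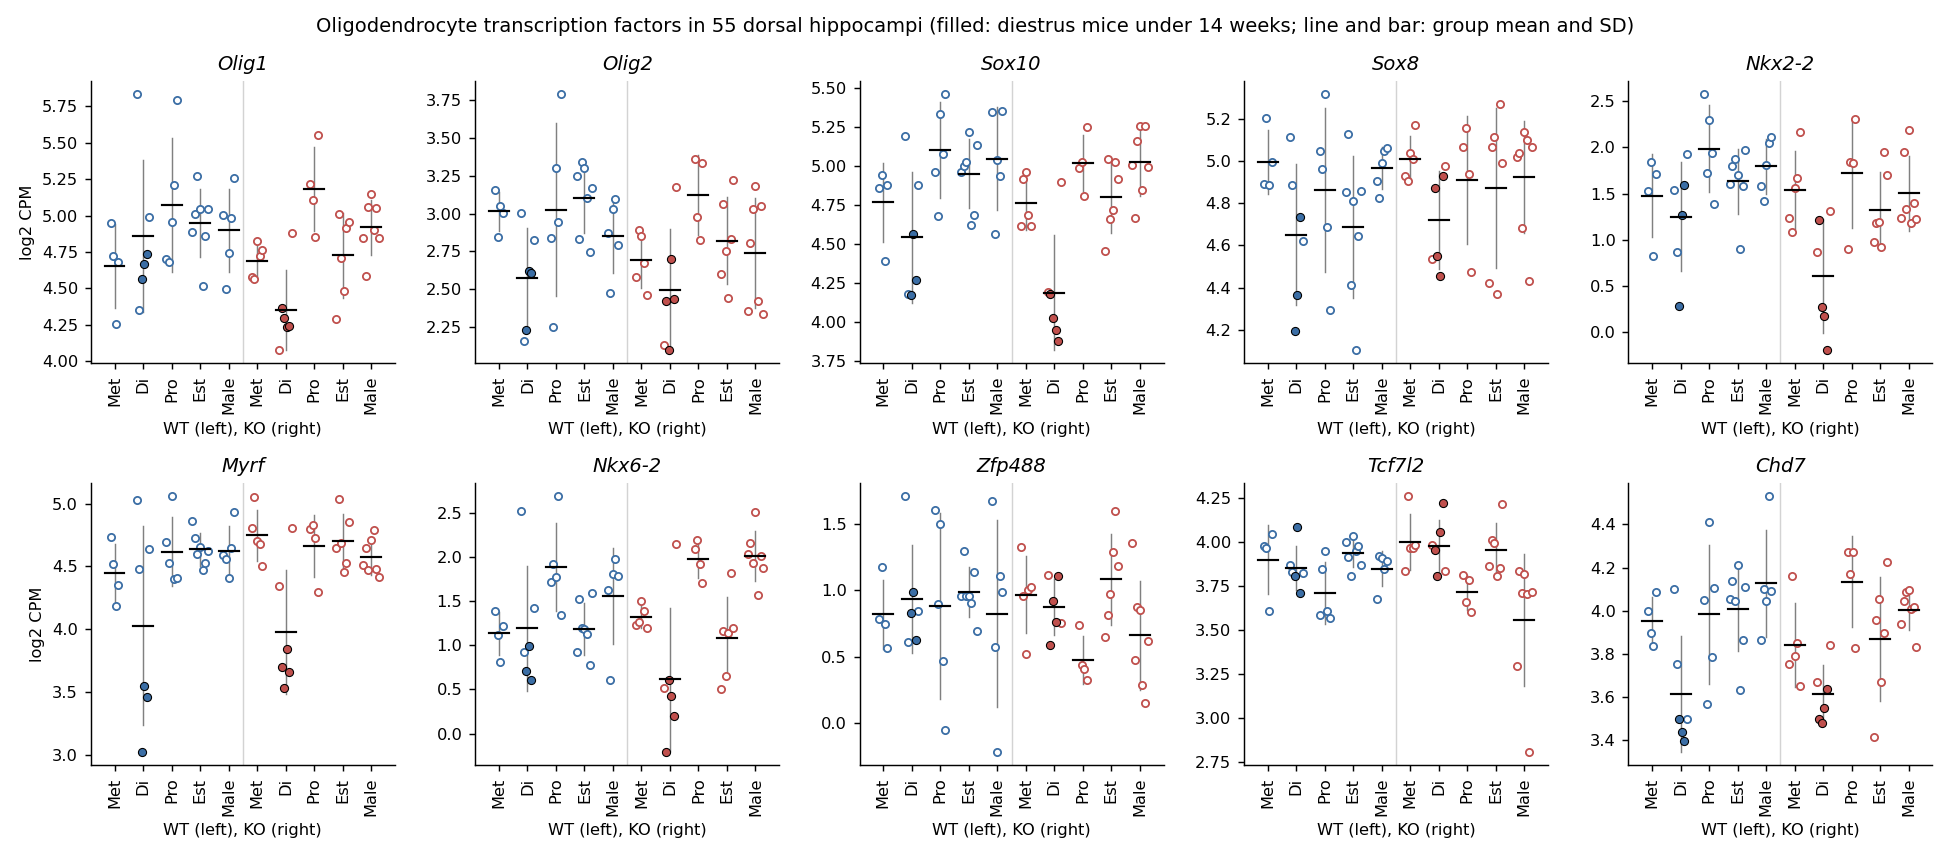
Level of each of the 10 genes in every mouse, in log2 CPM, by genotype and by stage or male. Each point is 1 library and the group means are marked. Diestrus had the lowest group mean for 6 of 10 genes in WT and for 8 of 10 in KO mice.

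Across the groups, diestrus was the low point for most of the factors. In WT mice the mean log2 CPM was lowest in Di for Olig2, Sox10, Sox8, Nkx2-2, Myrf and Chd7. In KO mice it was lowest in Di for all but Zfp488, lowest in Pro, and Tcf7l2, lowest in males. The steps between neighbours in these orders were mostly within the spread. Only 1 of 40 neighbouring pairs in WT mice (Chd7, Di below Met) and 8 of 40 in KO mice lay further apart than the larger SD of the pair. Of those 8 KO pairs, 5 were the step up from Di to the next group, for Olig1, Sox10, Nkx2-2, Myrf and Chd7. The number of genes called at a false discovery rate (FDR) under 0.05 in limma was set beside the percentage of all tested genes called in the same comparison. All comparisons with Di within a genotype share the same Di mice.

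Among the lineage factors, Sox10, which is required for terminal differentiation, was low in most diestrus mice of both genotypes. In CPM, Sox10 was 18.0, 19.3 and 23.7 in the younger WT Di mice and 18.1, 29.4 and 36.6 in the older ones, against 25.6, 31.1, 33.7, 40.3 and 44.1 in WT Pro. In KO mice it was 14.7, 15.4, 16.3 and 18.1 in the younger and 18.2 and 29.7 in the older Di mice, against 28.0, 31.6, 32.6 and 38.0 in Pro. All 4 younger KO Di mice lay below the older ones, as they did for 20.2% of all tested genes, while WT Di and WT Pro overlapped through the older mice. The log2 fold change of Di against Pro was -0.61 ± 0.15 (SE) in WT (FDR = 0.00976) and -0.92 ± 0.14 in KO mice (FDR = 3.03e-06). Sox10 was also lower in Di than in KO males (-0.90 ± 0.12, FDR = 2.52e-07), where the level ran from 25.4 to 38.2 CPM with a median of 32.0.

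Nkx2-2, which promotes the differentiation of precursors, changed by more but rested on fewer counts. Its levels were 1.21, 2.40 and 3.01 CPM in the younger WT Di mice, 1.81, 2.90 and 3.80 CPM in the older, and 2.61, 3.28, 3.83, 4.91 and 5.95 CPM in WT Pro. In KO mice they were 0.863, 1.12, 1.2 and 2.31 CPM in the younger Di mice, 1.82 and 2.47 CPM in the older, and 1.86, 3.56, 3.59 and 4.91 CPM in Pro. Both genotypes had Di mice within the range of Pro. The log2 fold change of Di against Pro was -0.94 ± 0.27 in WT (FDR = 0.0256) and -1.08 ± 0.28 in KO mice (FDR = 0.00205). Its promoter, printed above, is the one with 3 E-boxes.

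Olig1 and Olig2, the basic helix-loop-helix pair, were called in more comparisons of KO than of WT mice, although a difference between genotypes did not pass the test (below). For Olig2 in Di against Est the fold change was no larger in KO mice (-0.43, against -0.56 in WT mice). Olig1 was 18.8, 18.9, 19.6 and 20.5 CPM in the younger KO Di mice, 16.9 and 29.5 CPM in the older, and 28.9, 34.5, 37.1 and 46.9 CPM in KO Pro. One older mouse, at 29.5 CPM, reached the Pro range and the other was the lowest of all 55. Olig1 was lower in Di than in Pro by limma (log2 fold change -0.84 ± 0.13, FDR = 7.17e-06), and Olig2 likewise (-0.67 ± 0.17, FDR = 0.00134). In WT mice Olig1 did not pass in any comparison of whole groups, with values of 23.6 to 26.7 CPM in the younger Di mice and 20.3, 31.8 and 57.1 CPM in the older, and Olig2 was lower in Di than in Est (-0.56 ± 0.17, FDR = 0.0152). Sox8, which partly shares the role of Sox10, was lower in WT Di than in Met (Met minus Di 0.47 ± 0.15, FDR = 0.0451) and Pro (-0.49 ± 0.16, FDR = 0.0380) and in KO Di than in KO males (-0.31 ± 0.12, FDR = 0.0441). The last of these was the smallest called change of the lineage factors, and Sox8 levels in Di, 18.3 to 34.6 CPM in WT, overlapped those of every other WT group.

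Myrf, the membrane-anchored factor that switches on and maintains myelin genes, separated the diestrus mice most cleanly. Myrf was at 8.11, 11.0 and 11.7 CPM in the younger WT Di mice and at 22.3, 24.9 and 32.6 CPM in the older. In KO mice it was at 11.6, 12.7, 13.0 and 14.4 CPM in the younger and at 20.3 and 28.0 CPM in the older. The other 48 mice, older Di mice included, ran from 18.2 to 33.5 CPM, so the 7 younger Di mice did not overlap any of them. Of all tested genes, 1.42% had these 7 mice below the other 48, and Myrf was the only 1 of the 10 factors that did. Across whole groups the log2 fold change of Di against Pro was -0.90 ± 0.19 in WT (FDR = 0.00323) and -0.96 ± 0.16 in KO mice (FDR = 1.64e-05).

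**Figure D2:**
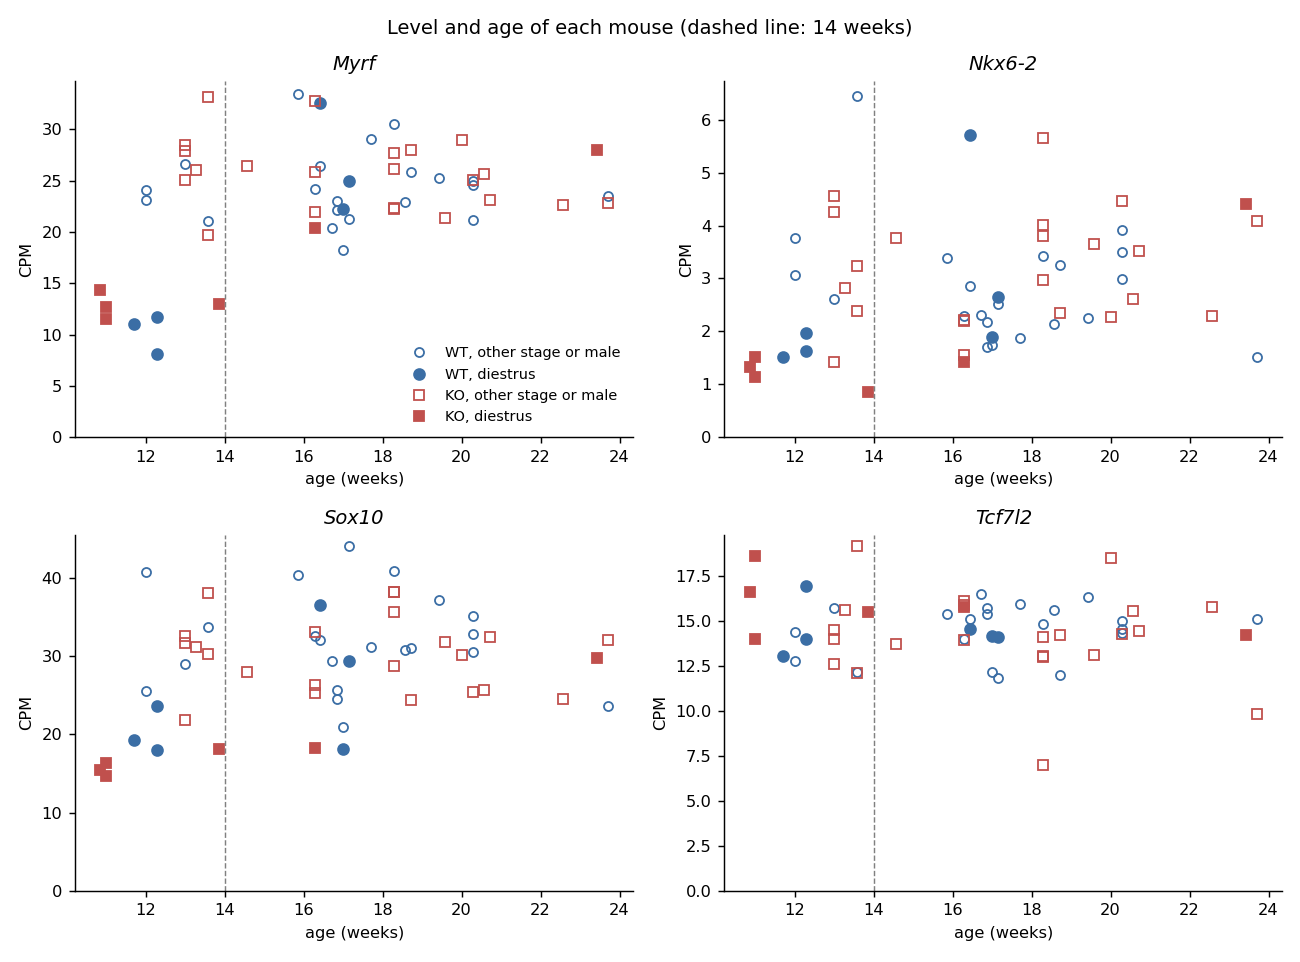
Level of Myrf, Nkx6-2, Sox10 and Tcf7l2 in CPM against age in weeks, 1 point per mouse, with diestrus mice marked apart from all others. The 7 diestrus mice under 14 weeks, aged 10.86 to 13.86 weeks, have Myrf between 8.11 and 14.4 CPM. The 10 mice under 14 weeks outside diestrus, aged 12 to 13.57 weeks, have 19.7 to 33.2 CPM.

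Nkx6-2, expressed in maturing oligodendrocytes, had the largest fold changes of the 10 genes in KO Di against Pro and against males, at low counts. In KO mice it was at 0.854, 1.14, 1.33 and 1.51 CPM in the younger Di mice, at 1.42 and 4.41 CPM in the older, and at 3.24, 3.75, 4.26 and 4.55 CPM in Pro. KO males ran from 2.96 to 5.65 CPM with a median of 4.01. All Di mice except 1 older mouse lay below both groups. The log2 fold change was -1.70 ± 0.23 against Pro (FDR = 8.3e-07) and -1.59 ± 0.21 against males (FDR = 2.04e-07). In WT mice Di fell below Pro by 0.92 ± 0.25 on the log2 scale (FDR = 0.0173), with 1.51, 1.62 and 1.97 CPM in the younger and 1.89, 2.66 and 5.71 CPM in the older Di mice, against 2.53, 3.26, 3.39, 3.76 and 6.45 CPM. Nkx6-2 was also the only 1 of the 10 genes called between Pro and Est, higher in Pro by 0.78 ± 0.20 in WT (FDR = 0.0142) and by 1.02 ± 0.22 in KO mice (FDR = 0.0233), a comparison that holds no Di mouse. Neither call was made by edgeR or DESeq2.

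Chd7, the chromatin remodeler, was called in the most WT comparisons with Di. It was at 10.5, 10.8 and 11.3 CPM in the younger WT Di mice and at 11.3, 13.5 and 17.2 CPM in the older, against 14.6, 16.5, 17.0, 17.2 and 23.2 CPM in WT males. Of the 6 Di mice, only the highest reached into the male range. Chd7 was the only 1 of the 10 genes called in WT Di against males (-0.65 ± 0.14, FDR = 0.0374). In KO mice it was at 11.1, 11.3, 11.7 and 12.4 CPM in the younger and at 12.7 and 14.3 CPM in the older Di mice, and lower in Di than in Pro (-0.62 ± 0.11, FDR = 4.57e-05), where it was at 14.2, 18.0, 19.3 and 19.3 CPM. Tcf7l2, a Wnt effector that is transiently high in newly formed oligodendrocytes, went the other way in KO mice. Its levels were 14.0 to 18.6 CPM in KO Di with a median of 15.6, 12.1, 12.6, 13.7 and 14.0 CPM in KO Pro, and 6.97 to 14.3 CPM in KO males with a median of 13.1. It was higher in Di than in Pro by 0.27 ± 0.10 (FDR = 0.0341) and than in males by 0.36 ± 0.09 (FDR = 0.00152), of which edgeR and DESeq2 called the difference from males. Zfp488, a zinc finger partner of Olig2, was not called in any comparison and ran from 0.847 to 3.26 CPM over all mice.

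**Figure D3:**
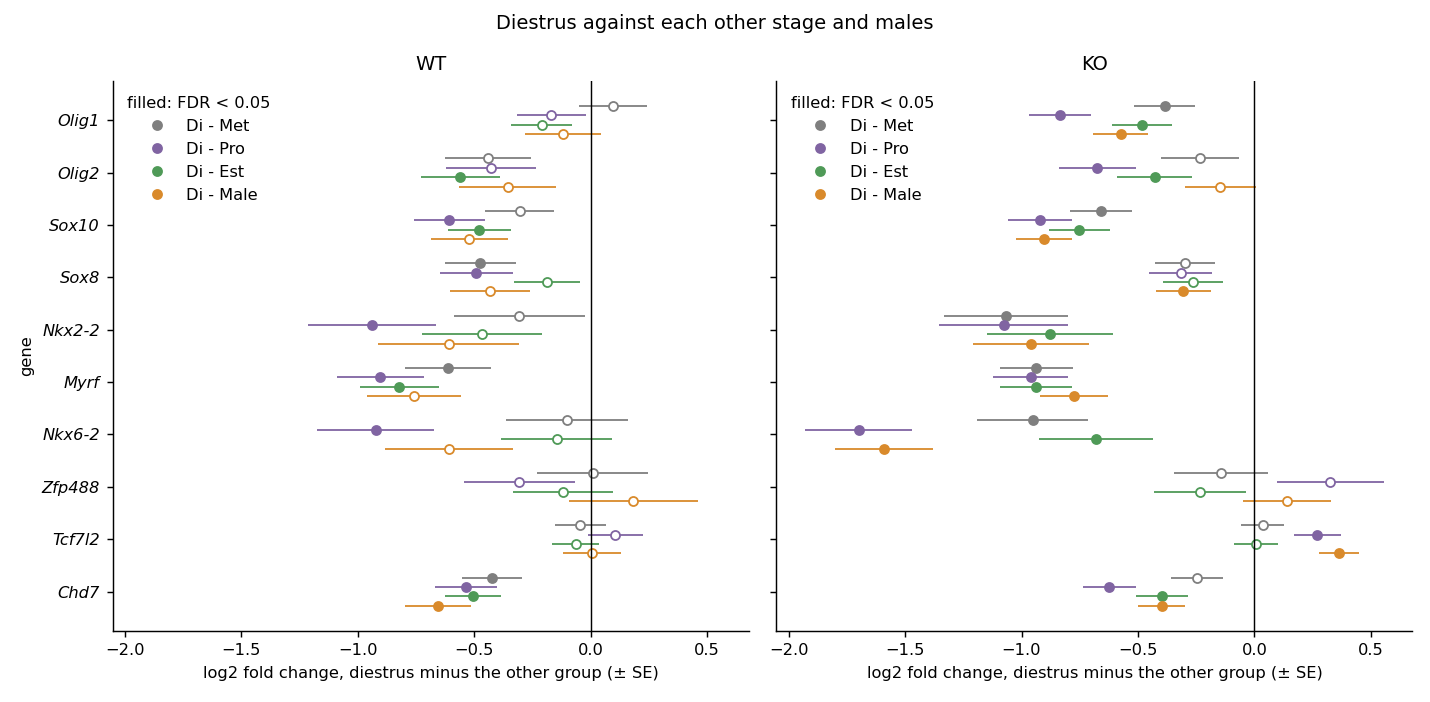
Log2 fold change (± SE) of diestrus against each other stage and against males for the 10 genes in WT (left) and KO mice (right), from limma. Filled points passed FDR under 0.05. In KO mice 8 of 10 genes passed against proestrus and 8 of 10 against males, in each case 7 lower and 1, Tcf7l2, higher in diestrus.

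Counted over the 10 genes, most calls were of lower levels in Di. In WT mice Di was lower for 6 of 10 genes against Pro (9.66% of all tested genes called in either direction), for 4 against Est (22.1%), for 3 against Met (7.24%) and for 1 against males (0.068%). In KO mice it was lower for 7 and higher for 1 against Pro (34.3%), lower for 7 against Est (30.7%), lower for 5 against Met (10.4%), and lower for 7 and higher for 1 against males (28.7%). The median log2 fold change of Di against Pro over the 10 genes was -0.51 in WT and -0.76 in KO mice, where the medians of all tested genes were -0.03 and -0.03. The WT calls depended on the test and on single mice. In each WT comparison with Di, edgeR and DESeq2 gave 0 of the 10, and without WT Di replicate 3, 4 or 5 in turn limma gave 0 in each. Without WT Pro replicate 3 there were 2 in Di against Pro. With parental breeding as a covariate there were 1 in Di against Pro and 0 in Met against Di. In KO mice edgeR gave 5 against Pro, 5 against males, and 0 against Met and Est, and DESeq2 gave 7, 6, 0 and 1. Percentages of all tested genes called are from limma throughout. For edgeR, DESeq2 and the refits named here they are not given, so those counts are not read as results about the 10 genes. Sox10, Olig1, Nkx2-2 and Nkx6-2 passed all 3 tools in KO Di against both Pro and males, whereas Myrf passed limma and DESeq2 against Pro and limma alone against males.

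Between the other stages few were called. These were 1 gene in Pro against Est in WT (6.82%) and 1 in KO mice (0.507%), and 2 in KO Met against Pro (4.37%), where Olig1 and Nkx6-2 were lower in Met. None of these was called by edgeR or DESeq2. None was called in WT Met against Pro (0.767%) by limma, edgeR or DESeq2, although 3 had an unadjusted p under 0.05 in limma. Met against Est gave no call by these 3 tools in WT mice (0% of all genes, 2 of the 10 at an unadjusted p under 0.05 in limma) or in KO mice (0%, 0 of the 10).

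No difference between genotypes passed. The 10 genes gave 0 calls for KO against WT in Met (0.0247% of all tested genes), Di (0%), Pro (0.315%), Est (0.179%) and males (0.00619%) by limma, edgeR and DESeq2. At an unadjusted p under 0.05 in limma they numbered 0, 4, 2, 0 and 1. The 4 in Di were Olig1 (-0.45 ± 0.14, FDR = 0.517), Sox10 (-0.42 ± 0.15, FDR = 0.517), Nkx2-2 (-0.76 ± 0.30, FDR = 0.542) and Nkx6-2 (-0.65 ± 0.27, FDR = 0.542). The change from Pro to Di did not differ between genotypes past the threshold for any of the 10 (0% of all genes, 2 of the 10 at an unadjusted p under 0.05), with the smallest FDR, 0.285, at Olig1 (-0.67 ± 0.20). The change from males to Di gave the same count of 0 (0% of all genes, 3 of the 10 at an unadjusted p under 0.05). Without WT Di replicate 3, 4 or 5 in turn, 5 of the 10 genes were called for KO against WT in Di and 1 in the genotype difference of Di against Pro. These are the 3 younger WT Di mice, and without any 1 of them the Di groups of the genotypes differ more in age. Without WT Pro replicate 4, 1 was called in Pro. The share of all genes called in these refits is not given here, so these counts are not read as results about the 10 genes. With only the younger Di mice, limma gave 0 of the 10 for KO against WT in Di (1.66% of all tested genes, 5 of the 10 at an unadjusted p under 0.05) and 0 for the genotype difference of Di against Pro (2.03%, 2 of the 10) and against males (0%, 3 of the 10). With only the older Di mice these were 0 in each (0%), with 0, 1 and 0 of the 10 at an unadjusted p under 0.05. Olig1 was at -0.36 ± 0.13 for KO against WT in the younger Di mice (FDR = 0.0894) and at -0.45 ± 0.26 in the older. The calls made in KO and not in WT mice above are therefore not shown to differ between the genotypes.

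Within diestrus, Myrf differed between younger and older mice in both genotypes. The log2 fold change of younger against older mice was -1.28 ± 0.17 in WT (FDR = 3.54e-07) and -0.90 ± 0.18 in KO mice (FDR = 0.000826). Nkx6-2 was lower in the younger KO mice as well (-1.12 ± 0.37, FDR = 0.0441) and had -0.61 ± 0.32 in WT mice (FDR = 0.138). These were 1 of 10 genes called in WT mice (31% of all tested genes) and 2 of 10 in KO mice (8.75%), so the share called among the 10 was below that of all genes in WT mice. Myrf was called in both genotypes by limma, edgeR and DESeq2 and without each Di mouse in turn, and Nkx6-2 in KO mice was not called without KO Di replicate 2 (-0.89), 5 (-1.03) or 6 (-0.35). Without replicate 1 or 6, 1 older KO mouse remains and is assumed to vary like the other groups. No age difference differed between genotypes (0 of the 10 by limma, edgeR and DESeq2, 0% of all genes, 0 of the 10 at an unadjusted p under 0.05). Every younger mouse lay below every older mouse for Myrf and Chd7 in WT (23.8% of all tested genes) and for Sox10, Myrf and Chd7 in KO mice (20.2%).

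Outside diestrus none of the 10 genes passed a comparison of younger with older mice. Between the 10 mice under 14 weeks and the 33 older ones, with group means removed, 0 of the 10 genes were called by limma, edgeR or DESeq2 (0.489% of all tested genes, 1 of the 10, Zfp488, at an unadjusted p under 0.05). WT Est and KO males held no mouse under 14 weeks, so these groups added nothing to the size of this difference. Myrf had a log2 fold change of 0.02 ± 0.09 and Nkx6-2 of 0.29 ± 0.16. The 10 younger mice here were 12 to 13.57 weeks old, and some younger Di mice, from 10.86 weeks, were younger than all of them. The 7 lowest Myrf libraries of all 55 were the 7 younger Di mice. Of the 7 lowest libraries, the younger Di mice made up 5 for Sox10 and Chd7, 4 for Nkx2-2 and Nkx6-2, 3 for Olig1, 2 for Olig2 and Sox8, and 0 for Zfp488 and Tcf7l2.

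**Figure D4:**
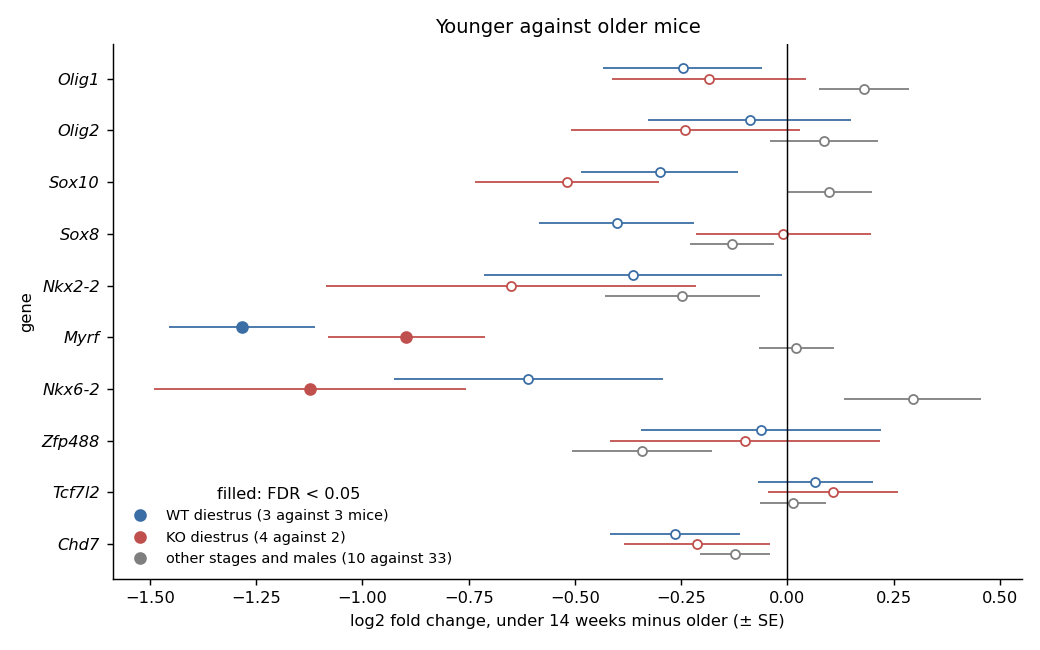
Log2 fold change (± SE) of younger against older mice for the 10 genes, within WT diestrus, within KO diestrus and outside diestrus, from limma. Myrf is at -1.28 and -0.90 within diestrus and at 0.02 outside it.

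The calls of diestrus against other groups were not made with the older Di mice alone. With only the younger Di mice, the 10 genes gave 5 calls in WT Met against Di (38.6% of all tested genes), 7 in Di against Pro (39.3%), 5 against Est (46.9%) and 5 against males (26.2%). In KO mice the same comparisons gave 5 (18.2%), 8 (39.2%), 7 (39.5%) and 7 (35.3%). With only the older Di mice, 3 WT and 2 KO, all 8 comparisons gave 0 calls among the 10 by limma. The share of all genes called was then 0% in each, except 0.0371% in WT and 0.0433% in KO Di against males. At an unadjusted p under 0.05 the older WT mice gave 0, 3, 2 and 1 of the 10 against Met, Pro, Est and males, and the older KO mice 0, 4, 0 and 1.

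Without the younger mice, the fold changes of Di given here lay closer to 0, by amounts that differed between genes and comparisons. Myrf against Pro was at -0.08 ± 0.14 in WT and -0.20 ± 0.18 in KO mice in the older, compared with -1.36 ± 0.15 and -1.05 ± 0.12 in the younger. Sox10 against Pro was at -0.42 ± 0.17 in the older WT and -0.47 ± 0.22 in the older KO mice, compared with -0.72 ± 0.14 and -0.94 ± 0.13 in the younger. Nkx2-2 was at -0.72 ± 0.29 and -0.48 ± 0.39 in the older and -1.09 ± 0.29 and -1.08 ± 0.29 in the younger. Nkx6-2 was at -0.53 ± 0.28 and -0.77 ± 0.35 in the older and -1.14 ± 0.24 and -1.85 ± 0.23 in the younger, and against KO Est it was at 0.27 ± 0.36 in the older and -0.83 ± 0.24 in the younger. Sox8 against WT Pro was at -0.21 ± 0.16 in the older and -0.61 ± 0.16 in the younger.

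The changes of Olig2, Chd7, Olig1 and Tcf7l2 given below were also smaller in the older mice. The errors in the older mice are too wide to sort the genes by how far their changes shrank. Olig2 against WT Est was at -0.52 ± 0.21 in the older and -0.59 ± 0.17 in the younger mice, and against KO Pro at -0.48 ± 0.28 and -0.67 ± 0.17. Chd7 against WT males was at -0.47 ± 0.16 in the older and -0.71 ± 0.14 in the younger, and against KO Pro at -0.45 ± 0.19 and -0.62 ± 0.12. Against KO Est, Chd7 was at -0.21 ± 0.18 in the older and -0.40 ± 0.11 in the younger, and Olig2 at -0.22 ± 0.27 and -0.43 ± 0.16. Olig1 against KO Pro was at -0.68 ± 0.24 and -0.82 ± 0.12. In WT mice Olig1 was at -0.01 ± 0.19 against Pro in the older, and its 1 WT call came in the younger mice against Est (-0.29 ± 0.12, FDR = 0.0383). Tcf7l2 against KO males was at 0.26 ± 0.14 in the older and 0.40 ± 0.09 in the younger. The older mice number 3 and 2, and a call lost in them does not show that a difference is absent.

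Other genes of the lineage were read from lists of markers. Of 15 mature oligodendrocyte genes, 12 were lower in Di than in Pro in WT (9.66% of all tested genes called) and 12 in KO mice (34.3%), with median log2 fold changes of -0.89 and -0.87. With only the younger Di mice these were 13 and 11 genes, with medians of -1.18 and -0.87, and with only the older 0 and 0, with medians of -0.36 and -0.36 and all 15 below 0 in each genotype. Among them was Mag, a myelin adhesion protein, at -1.51 in WT and -1.63 in KO mice. Of 10 genes listed as precursor genes, 2 were lower in WT (Gpr17 -1.28 and Enpp6 -1.2 were the largest) and 7 in KO mice (Enpp6 -1.24 and C1ql1 -1.0), against the same shares of all genes. The list is not confined to dividing precursors, and the paper ties Gpr17 to the maturation of precursors and to myelination. Lower levels of these genes are therefore not read as fewer dividing precursors. With only the younger Di mice 6 were lower and 1 higher in WT and 7 lower in KO mice, and with only the older 0 were called in each. Within Di, 9 of the 15 mature genes were lower in younger than in older WT mice (31% of all tested genes called) and 6 of 15 in KO mice (8.75%), with Mag at -1.52 and -1.0. The precursor genes gave 4 lower and 1 higher of 10 in WT and 1 lower in KO mice, and the last of these is near the share of all genes. Outside Di (0.489%) only 1 mature gene, Gjb1 (-0.43, FDR = 0.0479), was lower in the younger mice.

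Regulators outside the 10 gave calls in both directions. Of 17 other genes that favour differentiation, 1 was higher and 1 lower in WT Di against Pro (9.66% of all tested genes called), with Zfp536 lower (-0.33) and Myt1 at -0.30 without a call. In KO mice 4 were higher and 3 lower (34.3%), with the deacetylase Hdac2 at -0.37. Of 8 genes that hold differentiation back, 1 was higher in WT Di (Sox5, 0.38), with Hes5, a Notch target, at -0.68 without a call. In KO mice 1 was higher (Sox5, 0.45) and 1 lower (Lingo1, -0.57). In younger against older WT mice (31%) the first list gave 2 higher and 2 lower, with Myt1 at -0.70 and Zfp536 at -0.32, and the second 2 higher and 2 lower, with Hes5 at -1.30 and Id2 at 0.52. In KO mice (8.75%) they gave 1 lower (Hdac2, -0.44) and 1 higher (Sox5, 0.59). No test set these lists against all genes.

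Markers of other cells moved beside these results. The summed level of 5 neuronal genes was 10396 to 11719 CPM in the 7 younger Di mice and 7241 to 10581 CPM in the other 48, and that of 15 mature oligodendrocyte genes was 3307 to 4260 against 3657 to 7534 CPM. Precursor genes summed to 45.2 to 66.5 against 58.5 to 93.6 CPM. Each of these ranges overlapped that of the other mice. Astrocyte genes (1482 to 1810 against 1138 to 3090 CPM), thalamic genes (medians of 68.4 against 78.5 CPM) and microglial genes (182 to 261 against 179 to 318 CPM) overlapped as well. Choroid plexus genes summed to 135 to 1152 CPM in the younger Di mice, with a median of 312, and to 22.7 to 2242 CPM in the others, with a median of 78.8 (32.3 to 176 CPM in the older Di mice), and 2 of the 8, Folr1 and Slc4a5, were at 0 in 2 and 3 libraries. Of 4 Schwann cell genes, 3 did not pass the filter, among them Pmp2 with 0 to 6 and Prx with 0 to 39 counts per library. Genes of dentate granule cells (164 to 215 against 169 to 284 CPM) and of CA1 pyramidal cells (241 to 325 against 272 to 419 CPM), the principal neurons of the hippocampus, were present in every library. Their medians were lower in the younger Di mice, at 187 against 229 and 284 against 337 CPM. The median of the 5 neuronal genes was higher, at 10649 against 8913 CPM. The part of cell composition in the changes of the 10 genes was not tested.

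**Figure D5:**
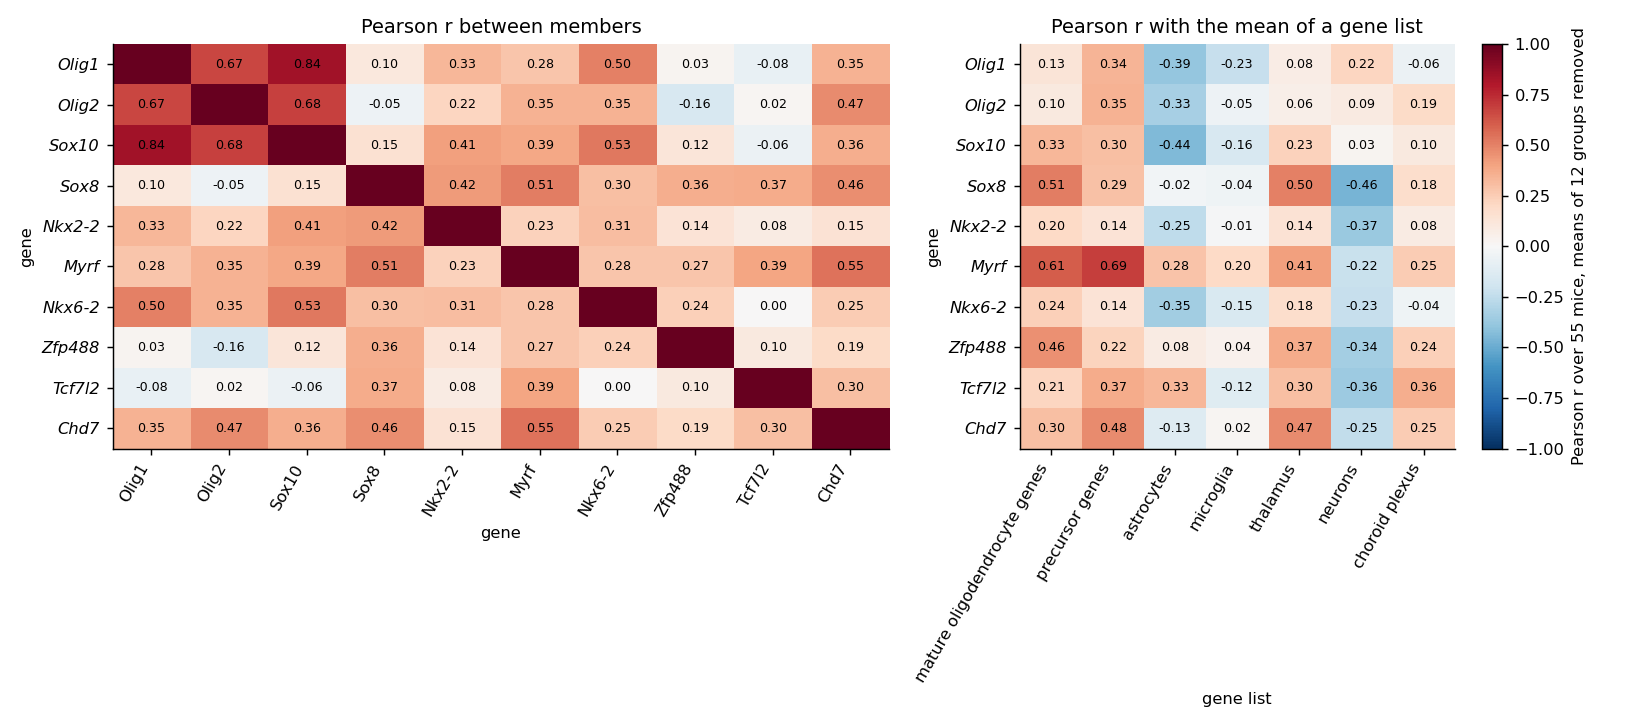
Pearson correlation of log2 CPM between the 10 genes over 55 libraries after the means of 12 groups (diestrus divided at 14 weeks) were removed. Olig1, Olig2 and Sox10 form the block of highest values, from 0.67 to 0.84. The right panel gives r with the mean of marker lists, where these genes were at 0.13, 0.10 and 0.33 with the mature oligodendrocyte genes. No p is given because the libraries share dissection, depth and composition.

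Mouse by mouse, Olig1, Olig2 and Sox10 rose and fell together within groups. With the 10 group means removed, Pearson's r over 55 libraries was 0.84 for Olig1 and Sox10, 0.68 for Olig2 and Sox10 and 0.67 for Olig1 and Olig2, and the values were the same to 2 decimals when Di was divided by age. With Di divided, their r with the mean of the 15 mature oligodendrocyte genes was 0.13 for Olig1, 0.10 for Olig2 and 0.33 for Sox10. With the precursor genes it was 0.34, 0.35 and 0.30, and with the 8 genes that hold differentiation back 0.69, 0.68 and 0.70. Myrf correlated with Nkx6-2 at 0.53, which dropped to 0.28 when Di was divided by age, and with Chd7 at 0.57, which became 0.55. The genes most like Myrf were Cntn2 (0.92, or 0.75 with Di divided), Sema6a (0.89 or 0.71) and Ttyh2 (0.89 or 0.74). With Di divided, Tcf7l2 was at 0.21 with the mean of the mature oligodendrocyte genes, 0.37 with precursor, 0.36 with choroid plexus and 0.33 with astrocyte genes. It was at 0.40 with CA1 pyramidal, 0.38 with dentate granule, 0.30 with thalamic and -0.36 with neuronal genes. With the 17 other genes that favour differentiation it was at 0.47. Chd7 was at 0.30 with the mature genes and at 0.48 with precursor genes and with dentate granule cell genes. With thalamic genes Chd7 was at 0.47. Which cells gave this RNA was not tested. These are descriptions over libraries that share depth and tissue composition.

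The nearest genes of the other factors differed from factor to factor. With the 10 group means removed, they were Arf5 (0.90), Arhgap23 (0.87) and Map2k2 (0.86) for Olig1, and Zfp622 (0.76), Prdm8 (0.76) and Pgrmc2 (0.75) for Olig2. Sox10 was closest to Olig1 (0.84), Cpox (0.83) and Slain1 (0.83), and Sox8 to Fam76a (0.80), Lmnb2 (0.78) and Maf1 (0.77). Olig1 was thus the only 1 of the 10 among the 3 nearest genes of another of them. Nkx2-2 was closest to Cdc42ep1 (0.69), Hexim1 (0.63) and Bmi1 (0.62), and Nkx6-2 to Ankrd13a (0.71), Frmd5 (0.71) and Cuedc1 (0.70). Zfp488 was closest to Slc37a2, Frmd8 and Carhsp1, each at 0.56, Tcf7l2 to Rassf2 (0.69), Psd2 (0.68) and Rab11fip4 (0.67), and the nearest genes of Chd7 included Ralgapa2 (0.73) and Phf20l1 (0.70).

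At the level of transcripts, most of the factors were carried by 1 annotated form. Sox8-201 took a median of 99.1% of the estimated counts of Sox8 and Nkx2-2-201 94.7% of those of Nkx2-2, and Olig1, Olig2 and Zfp488 have 1 transcript in the table. All estimated counts of Nkx6-2 went to Nkx6-2-201 in every mouse, a form annotated as subject to nonsense-mediated decay, and none to its protein-coding form. The gene-level values of Nkx6-2 do not tell these forms apart. Chd7 was divided between Chd7-202, at a median of 50.4% (range 39.9% to 74.5%), and Chd7-206, at 42.9% (11.3% to 56.3%). For Sox10, the 2 main forms had medians of 62.5% (Sox10-201) and 37.5% (Sox10-203), each with a range of 0% to 100% over the mice. Shares that swing over the whole range between mice of a group do not separate the 2 forms reliably, so no group difference in them is given.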

How the data were processed

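The 55 libraries came from the dorsal hippocampus, lysed in NP-40 buffer and centrifuged, with polyadenylated RNA of the supernatant made into cDNA (SMARTer). The authors deposited raw read counts per Ensembl gene, from STAR 2.7.9a alignments to GRCm38 counted with featureCounts 2.0.3, estimated counts per transcript, for which Salmon 1.5.2 is named in the submitters' processing notes, and a table of log2 CPM that matched the log2 CPM computed here within 5.3e-15. The authors' gene and transcript CPM tables were not used. A further 1 count column belonged to no listed mouse and was left out. Groups, stages and ages came from the labels and parents from the study's sample table. Replicates are separate mice, numbered in accession order.

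Genes over 1 CPM in at least 10 libraries, without 5 ribosomal RNA genes, were kept (16168 genes). TMM factors (edgeR 4.0.16) and voomWithQualityWeights (limma 3.58.1, R 4.3.3) were used for the fit, with 1 mean for each of 10 groups, as in the study's methods. The numbers of genes called were not those of the paper. The paper reports more in WT Di against males than the 11 called here. It reports fewer in KO Di against males than the 4635 called here. The shares of all genes are those of the present fit. A second fit divided diestrus at 14 weeks into 12 means and added a term for mice under 14 weeks outside diestrus. FDR followed Benjamini and Hochberg over all genes within a comparison, with a threshold of 0.05. Levels are CPM with TMM-scaled totals. Depth, from 25881295 to 63547098 counts, leaves Nkx2-2, Nkx6-2 and Zfp488 with the widest errors.

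The 10 genes, the marker lists and the age division were chosen with earlier results of these data known. The text names all 10 genes, the 2 genes of a described list with the largest log2 fold change, and the 3 genes most correlated with each of the 10. Alternatives were DESeq2 1.42.0, the quasi-likelihood test of edgeR, RLE factors, a fit without quality weights, all genes without the count filter, parental breeding or age as a covariate, only the groups compared, only younger or only older diestrus mice, and each mouse left out in turn. A fit with the shared first number of mouse labels as a random block was added after seeing the data. The fits were tested on simulated data. Positions are from GENCODE M21 (GRCm38), promoters from RefSeq (GRCm38.p6), which has an entry for Olig2, Sox8, Nkx2-2, Nkx6-2, Zfp488 and Tcf7l2. Transcript shares of Myrf and Tcf7l2 are not reported here. Values of a few genes of these lists and of the likeness ranking are not reported here.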

Additional observations from a re-analysis of the deposited data

Results flagged for a closer look

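Within the 100 sets of 1 gene in 1 group, 7 had a highest or lowest mouse set apart from the rest by Dixon's criterion, where chance alone gives about 5% of sets. KO diestrus replicate 6, 1 of the 2 older KO diestrus mice, was the highest of its group for 3 genes, with a log2 CPM of 4.88 for Olig1 (next 4.36), 4.89 for Sox10 (next 4.19) and 2.14 for Nkx6-2 (next 0.60). The other 4 were single genes in single mice. Sox10 was lowest in WT metestrus replicate 3, at 4.39 (next 4.86), and Nkx2-2 in WT estrus replicate 5, at 0.91 (next 1.58). Nkx6-2 was lowest in WT male replicate 2, at 0.61 (next 1.62), and Zfp488 highest in WT diestrus replicate 1, at 1.71 (next 0.99). No explanation was tested.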

How the results depend on the processing

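Of the 49 called fold changes of the 10 genes, alternatives other than leaving out a mouse gave 522 values, of which 314 kept direction and call, 206 kept direction without the call and 2 reversed. Leaving out single mice gave 540 values, with 433, 106 and 1. Myrf in younger against older diestrus mice kept its call in 14 of 14 alternatives in each genotype, from -1.47 to -1.13 in WT and from -1.13 to -0.69 in KO mice. RLE factors left every count of calls within 1.5 times the main one.

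With only older diestrus mice, 3 WT and 2 KO, none of 42 called fold changes kept its call, and with edgeR and DESeq2 13 and 17 of 49 did. With edgeR the counts of the 10 genes called were 0 in WT Met against Di, Di against Pro, Di against Est, Pro against Est and Di against males, 0 in KO Met against Di, Di against Est, Met against Pro and Pro against Est, 5 in KO Di against Pro, 5 in KO Di against males and 2 in younger against older WT diestrus mice. With DESeq2 they were 0 in the same 5 WT comparisons, 0 in KO Met against Di, Met against Pro and Pro against Est, 1 in KO Di against Est and 2 in younger against older WT mice. Without quality weights they were 0 in those WT comparisons except 2 in Di against Est, 0 in KO Met against Di, Met against Pro and Pro against Est, 2 in KO Di against Est and 1 in younger against older KO mice. Without the filter on counts they were 0 in WT Met against Di, Di against Pro and Pro against Est, 3 in KO Met against Di, 3 in KO Di against Est, 0 in KO Met against Pro and Pro against Est, and 1 in younger against older KO mice. With age as a covariate they were 0 in WT Met against Di and Di against males, 2 in WT Pro against Est, 1 in KO Met against Di, 3 in KO Di against Est and 4 in KO Di against males. With parental breeding as a covariate they were 0 in WT Met against Di, 1 in WT Di against Pro and 0 in WT Pro against Est. With only the groups compared they were 0 in WT Met against Di, Di against Pro and Di against males, 0 in KO Pro against Est and 1 in younger against older KO mice. The shares of all genes called by edgeR, by DESeq2 and in these other fits are not given here. These counts are therefore not read as results about the 10 genes. The cause of these changes was not tested.

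With only younger diestrus mice the counts were 5 in WT Met against Di and 5 in WT Di against males. With only older diestrus mice they were 0 in all 8 comparisons with Di, Myrf in WT Met against Di reversed to -0.20 and Nkx6-2 in KO Di against Est to 0.27. Myrf in WT Met against Di ranged from -0.011 (without WT diestrus replicate 3) to 0.94 with single mice left out.

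With single mice left out, counts ranged in WT mice from 0 to 5 (Met against Di), 0 to 7 (Di against Pro), 0 to 5 (Di against Est), 0 to 1 (Met against Pro), 1 to 1 (Pro against Est) and 0 to 6 (Di against males), and in KO mice from 3 to 5, 7 to 9, 5 to 8, 0 to 2, 0 to 1 and 7 to 8. They were 0 to 5 for KO against WT in Di, 0 to 1 in Pro, 0 to 1 for the genotype difference of Di against Pro, 1 to 4 for younger against older WT mice and 1 to 3 in KO mice. The lowest count in KO Met against Di, 3, came without KO diestrus replicate 2. The shares of all genes called with single mice left out are not given here. No paired analysis was possible because replicate numbers follow accession order and pair no mice. The labels of 26 mice share their first number with another mouse, and what it marks is not given in the sources used here. With that number as a random block, chosen after seeing the data, all 49 calls were kept. Low counts limit Nkx2-2, Nkx6-2 and Zfp488, and 2 older KO diestrus mice limit every comparison by age.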
